A study of Homo sapiens with 8 samples.

Results

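The comparison described here is the difference between 2 human neuroblastoma cell lines in their response to a PRMT5 inhibitor. For each gene, the change with inhibitor in NGP was set against the change with inhibitor in CHLA-20, as (NGP JSK591 minus NGP DMSO) minus (CHLA-20 JSK591 minus CHLA-20 DMSO) on the log2 scale. A positive difference means that a gene moved further up, or less far down, in NGP than in CHLA-20. All 8 libraries of the series entered, 2 in each of the 4 groups, and genes with at least 10 counts in every library were tested, 14520 of the 58721 in the files. The minimum left 212 tested genes whose lowest count was 10 and removed 208 whose lowest count was 9. Of the genes in the lists below, the transcription factor SOX9 was just inside it, with 10 to 22 counts in CHLA-20 and 632 to 950 in NGP, and the phosphatase DUSP5 just outside, with 38 to 57 and 9 to 32. CHLA-20 was grown in IMEM with serum, streptomycin, insulin, transferrin and selenite, and NGP in RPMI1640 with serum and streptomycin. Both lines were kept for 6 days with vehicle (DMSO) or inhibitor, named JSK591 in the sample labels but GSK591 where the treatment is described. The dose is described as the IC50 without a concentration, and whether it was the same concentration in both lines is not stated. Cell line, medium and any difference in dose therefore cannot be told apart in this comparison.

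PRMT5 is the enzyme that places most symmetric dimethyl marks on arginine residues, on histone tails and on Sm proteins and other splicing factors, and works in a complex with its partner WDR77. Loss of its activity is known to disturb splicing of weak introns, including those of regulators of the p53 response. Neuroblastoma is a childhood tumour of the sympathetic nervous system lineage, in which adrenergic transcription factors such as HAND2 and GATA3 keep up the identity of the cells. The title of the study is about PRMT5, methylation and activation of the kinase AKT, and metastasis, so the AKT genes and the genes of the epithelial-mesenchymal transition are described for both lines below.

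The libraries held 33188542 to 34914902 counts assigned to genes, and a gene with no count could still hold up to 3, or 0.0875 to 0.0905 CPM (counts relative to the TMM-scaled library size). Mitochondrially encoded genes took 19.0% to 21.4% of gene counts. The first principal component held 90.6% of the variance and separated the lines, and the second held 5.01% and separated JSK591 from DMSO in both lines. MYCN stood at 2030 to 2404 CPM in NGP and 2.04 to 3.62 in CHLA-20, while MYC stood at 1029 to 1405 CPM in CHLA-20 and 0.499 to 1.12 in NGP. Of the 8 neuroblastoma markers, PHOX2A, HAND2, GATA3 and ISL1 were among those present in every library. TH had 16 to 28 counts and DBH 8 to 12 in the NGP libraries, against 35362 to 47547 and 1553 to 2312 in CHLA-20, and CHGA had no count in 7 libraries and 1 in the other. Summed blood cell markers were 0.388 to 1.52 CPM, with CD68 at 0 in every library and 8 of 10 markers under 10 counts in all of them. Summed epithelial markers were 3.46 to 10.3 CPM. Summed markers of fibroblasts and Schwann cells were 758 to 777 CPM in NGP with DMSO and 854 to 893 with JSK591, with COL1A1 at 540.5 to 667, and in CHLA-20 they were 587 to 594 CPM with DMSO and 516 to 525 with JSK591. Its part in the differences of matrix genes below was not tested.

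The difference of effects passed the test for 5252 genes, 36.2% of those tested (edgeR, quasi-likelihood, Benjamini-Hochberg adjusted p under 0.05). It was positive (higher in NGP) for 2903 genes, 20% of those tested, and negative (lower in NGP) for 2349, 16.2%. Most differences were small: 3515 of the 5252, 66.9%, were under 0.5 on the log2 scale, and their median size was 0.38. A size of at least 1 was reached by 437 genes, 3.01%, of which 358 were higher and 79 lower. Over all genes tested the median difference was 0.02, with a median effect of -0.01 in CHLA-20 and 0.01 in NGP. In CHLA-20, 3232 genes rose (22.3%) and 3916 fell (27%), and in NGP 3226 rose (22.2%) and 3318 fell (22.9%). Across the 14520 genes the effects in the 2 lines, which share no library, had a Pearson r of 0.31 and a Spearman rho of 0.32. Genes are not independent replicates, and the correlation is given as a description.

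Opposite changes were the smaller share of the differences. Some 495 genes, 3.41% of those tested, rose in NGP and fell in CHLA-20, and 380 genes, 2.62%, fell in NGP and rose in CHLA-20. A change that passed in 1 line only was more common. Of the 2903 higher genes, 1029 fell in CHLA-20 without passing in NGP and 819 rose in NGP without passing in CHLA-20. Of the 2349 lower genes, 849 rose in CHLA-20 without passing in NGP and 718 fell in NGP without passing in CHLA-20. The rest changed the same way in both lines by unequal amounts, 324 falling and 155 rising among the higher and 162 falling and 168 rising among the lower, or, for 81 and 72 genes, passed only in the difference itself. The number that rose in NGP and fell in CHLA-20 was 303 without replicate 2 of CHLA-20 DMSO, 324 without replicate 1 of NGP DMSO and 300 without replicate 1 of NGP JSK591. The plot of the 2 effects against each other shows these classes. Because the lines start from different levels, 131 of the 5252 genes, 2.49%, had the opposite sign when differences were taken in CPM in place of ratios.

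**Figure D1:**
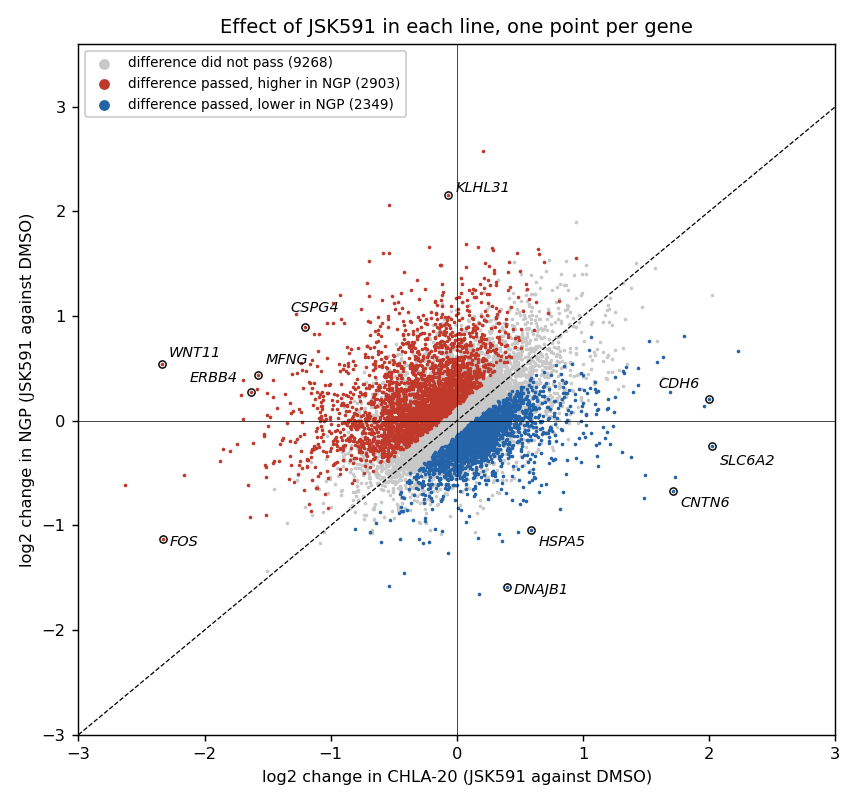
Each point is 1 of 14520 genes, with the log2 change with JSK591 in CHLA-20 on the x axis and in NGP on the y axis. Red marks the 2903 genes whose difference was higher in NGP and blue the 2349 lower ones, on either side of the dashed line of equal effects, and the circled genes are described in the text.

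The clearest negative difference in the endoplasmic reticulum belonged to HSPA5, which encodes BiP, the main chaperone of that compartment (ENSG00000044574.7, chromosome 9, 125234853 to 125241330, GRCh38). Its levels were 153 and 148 CPM in CHLA-20 with DMSO, 225 and 227 in CHLA-20 with JSK591, 406 and 385 in NGP with DMSO and 187 and 196 in NGP with JSK591. CHLA-20 libraries were higher with JSK591 than with DMSO and NGP libraries were lower, without overlap, and the order of the lines was reversed: NGP was above CHLA-20 with DMSO and below it with JSK591. HSPA5 rose by 0.59 ± 0.04 in CHLA-20 and fell by 1.05 ± 0.04 in NGP (log2 estimate ± SE), a difference of -1.63 ± 0.05 with adjusted p = 7.79e-27 (edgeR). Leaving out any 1 library gave values from -1.70 to -1.63. Of the 36 listed chaperones, oxidoreductases and factors of ER-associated degradation (ERAD), 35 had enough counts. The difference was lower in NGP for 20 and higher for 4, against 16.2% and 20% of all genes, with a median of -0.28 (median effects 0.13 in CHLA-20 and -0.13 in NGP). For 10 of the 20 the gene rose in CHLA-20 and fell in NGP. The higher count was 2 in 6 of the 8 fits without 1 library, the 2 exceptions being replicate 1 of CHLA-20 JSK591 and replicate 2 of NGP JSK591.

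Several of these genes carry the ER stress response element, which ATF6 and NF-Y are known to bind, and the stretches are shown because HSPA5, the member with the largest difference, and 5 other lower members hold one. The element was searched for as CCAAT, 9 bases of any kind and CCACG, on both strands of the 250 bases before each RefSeq start (GRCh38.p14). It was found in 8 of the 33 list genes with a promoter in the table, 24.2%, and in 16 of 10258 tested genes, 0.156%. The list was written from general knowledge of such genes, so these shares are a description and no test. Below, capitals mark the fixed bases of the element, and a promoter that holds it on the other strand reads CGTGG, 9 bases and ATTGG. The sequences run 5′ to 3′ on the strand of the gene.
HSPA5: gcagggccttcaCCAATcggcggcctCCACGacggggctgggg
CALR: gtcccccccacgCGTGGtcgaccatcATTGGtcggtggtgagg
HSP90B1: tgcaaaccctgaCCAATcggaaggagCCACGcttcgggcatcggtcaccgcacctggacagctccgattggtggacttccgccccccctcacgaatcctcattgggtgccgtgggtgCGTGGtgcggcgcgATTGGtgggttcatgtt
XBP1: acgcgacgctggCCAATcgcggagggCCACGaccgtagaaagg
They lie at chr9:125241379-125241421 (minus strand), chr19:12938372-12938414 (plus), chr12:103930204-103930351 (plus, with 2 elements) and chr22:28800591-28800633 (minus).

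CALR, the lectin chaperone calreticulin, stood at 331 and 338 CPM in CHLA-20 with DMSO, 432 and 426 in CHLA-20 with JSK591, 376 and 380.1 in NGP with DMSO and 281 and 291 in NGP with JSK591. It was above its DMSO libraries in CHLA-20 and below them in NGP, and the difference was -0.76 ± 0.05 (adjusted p = 9.76e-16). HSP90B1, the ER form of HSP90, went from 515 and 516 CPM with DMSO to 604 and 608 with JSK591 in CHLA-20, and from 456 and 439 to 356 and 368 in NGP, again without overlap within either line, with a difference of -0.54 ± 0.05. XBP1, a transcription factor of the unfolded protein response, had an effect of 0.02 in CHLA-20 that did not pass and fell by 0.50 in NGP, a difference of -0.52 ± 0.06. CANX (-0.32 ± 0.05) and PDIA6 (-0.30 ± 0.06), a lectin chaperone and a disulfide isomerase, were lower as well. The other members with the element were CRELD2, whose difference of -0.13 ± 0.12 did not pass, and the oxidase ERO1B, which was higher in NGP (0.46 ± 0.16). The largest differences among list genes for which no element was found were DNAJC3, a co-chaperone that inhibits the kinase PERK (-0.79 ± 0.09), and MANF, a secreted ER stress protein (-0.77 ± 0.08). MANF went from 48.5 and 48.3 CPM with DMSO to 65.1 and 66 with JSK591 in CHLA-20, and from 31.2 and 32.6 to 26.1 and 24.6 in NGP, rising in CHLA-20 and falling in NGP. ERN1, which encodes the ER stress sensor IRE1, was higher in NGP (0.56 ± 0.10) having fallen by 0.67 in CHLA-20 and stood at -0.11 in NGP without passing. A match of the letters is a description of the sequence and does not show binding.

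**Figure D2:**
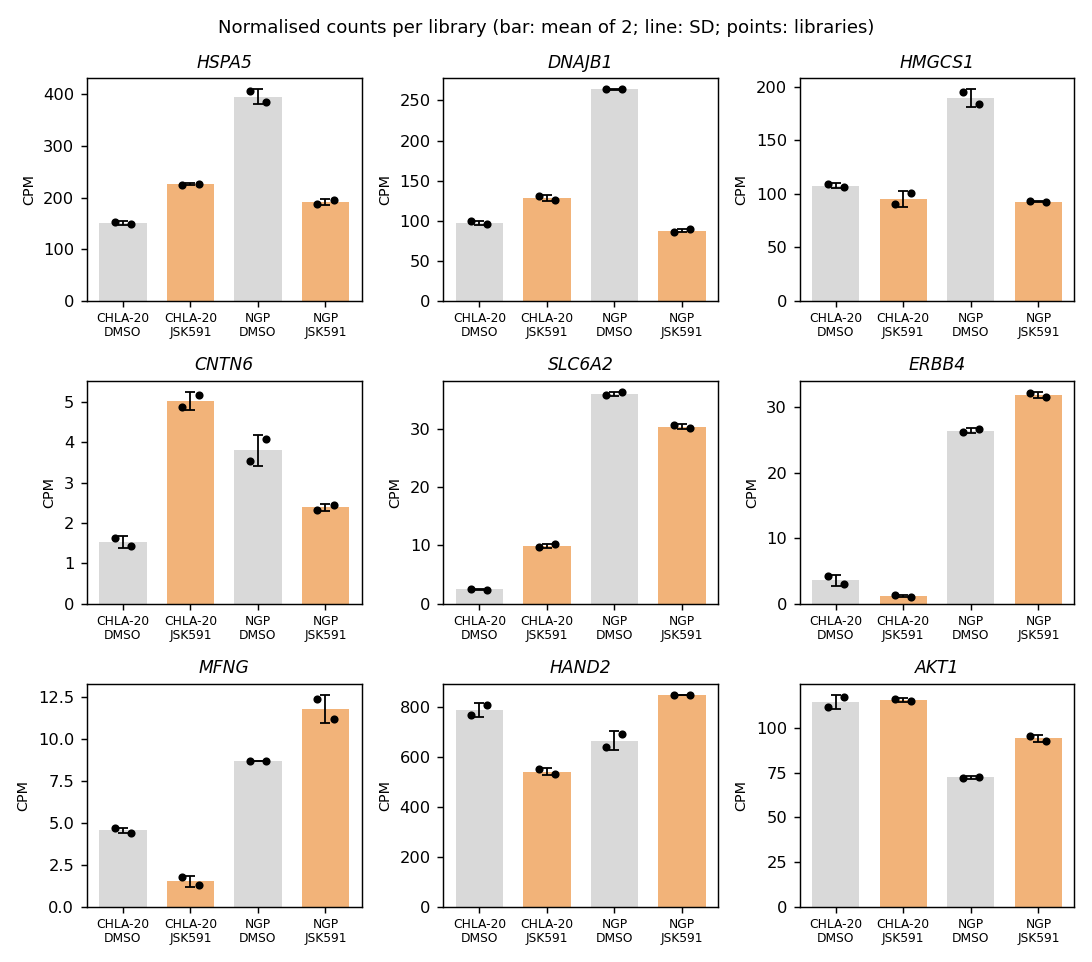
TMM-scaled CPM in every library for 9 genes, with 1 point per library, a bar for the mean of 2 libraries and a line for their SD, grey for DMSO and orange for JSK591. HSPA5, DNAJB1 and CNTN6 moved in opposite directions in the 2 lines, while HMGCS1 stood at 92.3 to 93.2 CPM with JSK591 in NGP against 184 to 196 with DMSO.

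Cytosolic heat shock genes moved in a similar way. DNAJB1, an HSP40 co-chaperone (ENSG00000132002.7, chromosome 19, 14514770 to 14529770), stood at 99.2 and 95.7 CPM in CHLA-20 with DMSO, 131 and 126 in CHLA-20 with JSK591, 264 and 264 in NGP with DMSO and 86.1 and 89.3 in NGP with JSK591. It rose in CHLA-20 and fell in NGP to a level under that of CHLA-20, with no overlap in either line, and its difference of -1.98 ± 0.06 had an adjusted p of 2.74e-29, the smallest among the 167 genes chosen by the naming rule. HSPH1, an HSP110 chaperone, rose by 0.80 ± 0.04 in CHLA-20, while its effect of 0.02 ± 0.04 in NGP did not pass, a difference of -0.77 ± 0.05. The co-chaperone CHORDC1 (-0.77 ± 0.08) and the mitochondrial chaperonin HSPE1 (-0.97 ± 0.12) rose in CHLA-20 and fell in NGP. HSPE1 shares 23.9% of its exonic bases with another gene, on either strand, and reads from these bases may not be told apart. HSP90AA1, HSPA8, HSPA4 and HSPD1, the main chaperones of the cytosol and mitochondria, were lower by smaller amounts (-0.34, -0.42, -0.38 and -0.18). Of 30 listed genes 26 were tested. In NGP 13 were lower and 2 higher, against 16.2% and 20% of all genes, with a median of -0.14. A heat shock element, searched for as GAA, TTC and GAA with 2 bases of any kind between them on both strands, was found in 6 of 24 promoters of the list, 25%, and in 45 of 10258, 0.439%. Its holders among them were CHORDC1, DNAJB6, HSP90AA1, HSP90AB1, HSPA8 and HSPD1, and all but HSP90AB1 were lower in NGP. DNAJB1 (-1.98), HSPE1 (-0.97) and HSPH1 (-0.77) were lower in NGP and not among the holders. These shares are a description and no test.

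Genes of cholesterol and fatty acid synthesis fell in both lines and for more members in NGP, 26 of 34 tested against 16 in CHLA-20 (22.9% and 27% of all genes fell). HMGCS1, which makes the HMG-CoA that feeds the mevalonate pathway (ENSG00000112972.14, chromosome 5, 43289395 to 43313512), stood at 109 and 106 CPM in CHLA-20 with DMSO, 90.3 and 101 in CHLA-20 with JSK591, 196 and 184 in NGP with DMSO and 93.2 and 92.3 in NGP with JSK591. NGP libraries with JSK591 were at about the level of CHLA-20, below both NGP libraries with DMSO, and in CHLA-20 the 2 groups did not overlap but lay close together. The gene fell by 0.18 in CHLA-20 and by 1.03 in NGP, a difference of -0.86 ± 0.06 (adjusted p = 8.91e-15). IDI1, the isomerase that follows in the pathway, went from 52.7 and 59.3 CPM with DMSO to 56.4 and 58.4 with JSK591 in CHLA-20, and from 105 and 99.1 to 56.1 and 57.4 in NGP, so that CHLA-20 groups overlapped and NGP groups did not, with a difference of -0.88 ± 0.07. SQLE, which oxidises squalene (-0.58 ± 0.05), fell in NGP and did not pass in CHLA-20. STARD4 and SC5D, a sterol carrier and a desaturase of the late pathway, rose in CHLA-20 and fell in NGP (-0.68 and -0.64). Of 36 listed genes 34 were tested, 20 lower and 2 higher in NGP, against 16.2% and 20% of all genes. The median was -0.21, with median effects of -0.05 in CHLA-20 and -0.35 in NGP. The 2 higher ones were SREBF2, the transcription factor of the pathway (0.16 ± 0.05), and FASN, the fatty acid synthase (0.42 ± 0.06). The sterol element, searched for as TCACCCCAC on both strands, was found in 1 of 27 promoters of the list, that of SREBF2, and in 45 of 10258.

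Regulators of splicing were the list with the largest share of negative differences before the trend of the counts with GC content was removed. Of 34 tested of 35 listed SR proteins, hnRNPs and splicing kinases, which bind pre-mRNA and steer the choice of splice sites, 23 were lower in NGP and 2 higher. Among all genes 16.2% were lower and 20% higher. The list had a median of -0.23, and of -0.18 with the GC trend removed. With that trend removed 20 were lower, against 22 of 35 endoplasmic reticulum genes and 17 of 26 heat shock genes. The median effect was 0.24 in CHLA-20, where 22 rose, and -0.01 in NGP, where 8 rose and 15 fell. SRSF3 stood at 267 and 268 CPM in CHLA-20 with DMSO, 357 and 367 in CHLA-20 with JSK591, 424 and 428 in NGP with DMSO and 346 and 364 in NGP with JSK591. It was higher with JSK591 in CHLA-20 and lower with JSK591 in NGP without overlap, with a difference of -0.70 ± 0.05 (adjusted p = 1.53e-14). TRA2A went from 79.1 and 78.8 CPM with DMSO to 105 and 105 with JSK591 in CHLA-20, and from 88.4 and 88.8 to 78.2 and 75.3 in NGP, a change in opposite directions as well (-0.62 ± 0.06). RBM39 (-0.54 ± 0.05) and HNRNPK (-0.24 ± 0.05) were the other members that rose in CHLA-20 and fell in NGP. HNRNPM rose in both lines, by 0.97 ± 0.04 in CHLA-20 and 0.31 ± 0.04 in NGP. SRSF6 rose by 0.64 ± 0.04 in CHLA-20, and its 0.04 ± 0.04 in NGP did not pass. The kinases CLK1 and CLK4, which phosphorylate SR proteins, fell in both lines and further in NGP (-0.43 and -0.29). SRSF5 was an exception, rising by 0.14 in CHLA-20 and by 0.60 in NGP (0.46 ± 0.06), and the SR protein kinase SRPK2 was the other higher member (0.20 ± 0.06).

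Core spliceosome and Sm protein genes leaned the same way, with 16 lower and 4 higher of 34 tested and 38 listed. Among all genes 16.2% were lower and 20% higher. The list had a median of -0.17. PRPF3, of the U4/U6 particle, rose from 57.6 and 52 CPM to 96.9 and 96.7 in CHLA-20 and from 118 and 119 to 135 and 132 in NGP, a difference of -0.65 ± 0.06. SF3B3 and SF3B1, subunits of the U2 particle that recognises the branch point, rose in CHLA-20 and fell in NGP (-0.56 and -0.31). SF3B4 of the same complex rose by 0.30 ± 0.04 in CHLA-20 and did not pass in NGP at -0.09 ± 0.04. The 4 higher members were SNRPA, SF3A2, LSM7 and GEMIN4 (0.24, 0.24, 0.17 and 0.23). The higher count was 1 without replicate 2 of CHLA-20 DMSO or replicate 1 of either NGP group. With the trend of the counts with GC content removed, 20 members were lower and none higher.

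The PRMT enzymes themselves differed little, and 7.69% of the tested members of their list passed, against 36.2% of all genes. PRMT5 stood at 45.7 and 45.9 CPM in CHLA-20 with DMSO, 48.5 and 48.8 in CHLA-20 with JSK591, 62.1 and 62.9 in NGP with DMSO and 60.02 and 61.4 in NGP with JSK591, and its difference of -0.13 ± 0.07 did not pass (adjusted p = 0.137). The gene shares 27.1% of its exonic bases with another gene. With the GC trend removed its difference was -0.18 and passed with adjusted p = 0.0219. WDR77 had effects of 0.19 ± 0.07, a rise, and 0.17 ± 0.08, which did not pass, and a difference of -0.02 ± 0.11 (adjusted p = 0.918). PRMT6 rose in both lines, by 0.54 ± 0.05 and 0.44 ± 0.06, and CARM1 fell in CHLA-20 by 0.14, with -0.03 ± 0.04 in NGP. RIOK1, an adaptor that brings substrates to PRMT5, was the only one of 13 tested members of the list to pass: it stood at 45.6 and 44.6 CPM in CHLA-20 with DMSO, 49.8 and 47.7 in CHLA-20 with JSK591, 65.2 and 64.8 in NGP with DMSO and 49.3 and 51.9 in NGP with JSK591 and fell in NGP, with a difference of -0.47 ± 0.07.

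Of 42 genes of DNA replication and S phase, all of them tested, 25 rose in CHLA-20 and 10 in NGP, where 22.3% and 22.2% of all genes rose. The difference was lower in NGP for 22 and higher for 3, against 16.2% and 20% of all genes. The list had a median of -0.17, and median effects of 0.13 in CHLA-20 and -0.03 in NGP. MCM10, which helps to activate the replicative helicase, stood at 76.1 and 75.2 CPM in CHLA-20 with DMSO, 98.2 and 97.8 in CHLA-20 with JSK591, 95.1 and 96.2 in NGP with DMSO and 83 and 82.1 in NGP with JSK591. Both JSK591 libraries lay above DMSO in CHLA-20 and below it in NGP, and the difference was -0.59 ± 0.06 (adjusted p = 8.6e-11). CDC6, which loads the helicase, rose by 0.58 ± 0.04 in CHLA-20 with 0.03 ± 0.04 in NGP, and the clamp loader subunit RFC3 rose by 0.48 ± 0.05 with 0.05 ± 0.04 in NGP. The helicase subunits MCM4 and MCM5 and the ribonucleotide reductase subunits RRM1 and RRM2 rose in CHLA-20 and fell in NGP, with differences of -0.33, -0.33, -0.34 and -0.31. The 3 higher members were CDT1, POLD1 and POLD2 (0.20, 0.38 and 0.33), the last 2 being subunits of DNA polymerase delta. Mitosis genes passed in 10 of 37 cases, 27%, below the 36.2% of all genes, with 7 higher and 3 lower and a median of 0.03. With the GC trend removed 6 were lower, and 5 without replicate 2 of CHLA-20 DMSO. The kinase AURKB and the kinetochore protein SPC24 were higher in NGP (0.34 ± 0.05 and 0.48 ± 0.08), and cyclin A2 (CCNA2) and the motor KIF11 were lower (-0.32 ± 0.06 and -0.40 ± 0.06).

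Among cyclin D genes, cyclin-dependent kinases and their inhibitors, 6 of 17 were higher and 4 lower, or 2 lower without replicate 1 of CHLA-20 DMSO (median 0.03, and -0.03 with the GC trend removed). In the fit of all 8 libraries 58.8% of this list passed, against 36.2% of all genes. CDKN2C, an inhibitor of CDK4 and CDK6, fell by 1.01 in CHLA-20 and had -0.10 in NGP, a difference of 0.91 ± 0.19. RB1 (-0.39 ± 0.07) and CDK6 (-0.28 ± 0.05) were lower, and E2F2 (0.38 ± 0.07) was higher. Of 33 p53 targets 11 were lower and 5 higher, against 16.2% and 20% of all genes, with a median of -0.11. In CHLA-20 19 rose and 5 fell, where 22.3% and 27% of all genes did, and in NGP 16 rose and 7 fell, where 22.2% and 22.9% did. The higher count was 3 without replicate 1 of CHLA-20 DMSO, replicate 2 of NGP DMSO or either replicate of NGP JSK591. PLK2, a stress kinase, went from 69.4 and 70.4 CPM with DMSO to 110.1 and 108 with JSK591 in CHLA-20, and from 35.2 and 32.7 to 29.8 and 31.1 in NGP, a difference of -0.80 ± 0.07 with opposite directions. EDA2R, a receptor of the TNF family, rose in both lines, by 1.25 ± 0.09 and 0.41 ± 0.08, and MDM2, the ligase that degrades p53, likewise (0.69 and 0.33). The phosphatase PPM1D rose in CHLA-20 and fell in NGP (-0.50 ± 0.06). MIR34AHG, the host transcript of a p53-induced microRNA, was the largest positive difference of the list: it stood at 6.29 and 5.43 CPM in CHLA-20 with DMSO, 9.59 and 8.77 in CHLA-20 with JSK591, 10.1 and 9.32 in NGP with DMSO and 31.5 and 27.3 in NGP with JSK591, rose in both lines without overlap, and differed by 0.95 ± 0.14. Among 25 apoptosis regulators 5 were higher and 6 lower (median -0.04), and the higher count was 2 without replicate 1 of NGP DMSO or of NGP JSK591 and 3 without replicate 2 of any group but NGP JSK591. Among all genes tested 20% were higher and 16.2% lower, and 36.2% passed, against 44% of the apoptosis regulators. BMF, a BH3-only protein, fell by 0.88 in CHLA-20 and rose by 0.25 ± 0.09 in NGP, and BBC3 (PUMA) fell by 0.79 in CHLA-20 with -0.06 ± 0.08 in NGP. The survival gene MCL1 rose in CHLA-20 and fell in NGP (-0.54 ± 0.05).

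Receptor tyrosine kinases had the largest positive median of the lists with at least 9 tested members. Of 28 listed genes 24 were tested. The difference was higher in NGP for 14 and lower for 2, against 20% and 16.2% of all genes. The median was 0.43, and 0.36 with the GC trend removed, with median effects of -0.31 in CHLA-20 and 0.13 in NGP. ERBB4, a neuregulin receptor (ENSG00000178568.14, chromosome 2, 211375717 to 212538841), stood at 4.21 and 3.03 CPM in CHLA-20 with DMSO, 1.28 and 1.05 in CHLA-20 with JSK591, 26.2 and 26.7 in NGP with DMSO and 32.2 and 31.5 in NGP with JSK591. In CHLA-20 JSK591 libraries lay below both DMSO libraries, and in NGP, where the gene was higher throughout, they lay above. ERBB4 fell by 1.63 ± 0.19 in CHLA-20 and rose by 0.27 ± 0.07 in NGP, a difference of 1.90 ± 0.20 (adjusted p = 3.03e-10). KIT, the receptor of stem cell factor, went from 5.19 and 4.18 CPM with DMSO to 1.81 and 1.83 with JSK591 in CHLA-20, and from 29.8 and 27.9 to 34 and 35 in NGP, the same pattern of a fall and a rise, with a difference of 1.62 ± 0.17. FGFR1 stood at 57.7 and 55.6 CPM in CHLA-20 with DMSO, 39.3 and 36.3 in CHLA-20 with JSK591, 95.7 and 97.2 in NGP with DMSO and 121 and 113 in NGP with JSK591. The fibroblast growth factor receptors FGFR1 and FGFR2 fell in CHLA-20 and rose in NGP (0.86 and 1.39), FGFR3 fell in CHLA-20 (0.83 ± 0.26), and FGFR4 fell in both lines and further in CHLA-20 (0.72 ± 0.14). Of the neurotrophin receptors, NTRK3 was higher in NGP (0.74 ± 0.24) and NTRK2 was lower (-0.67 ± 0.21). RET, the GDNF receptor, rose in both lines and further in CHLA-20 (1.05 and 0.67), while ALK rose further in NGP (0.17 and 0.63).

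Genes that answer to ERK signalling, many of which dampen it, rose for 11 of 19 tested members in CHLA-20 and 6 in NGP, where 22.3% and 22.2% of all genes rose. The difference was lower in NGP for 7 and higher for 4, against 16.2% and 20% of all genes. The list had a median of -0.11 that became -0.26 with the GC trend removed. The higher count was 1 without replicate 1 of NGP DMSO and 2 without replicate 1 of NGP JSK591. SPRY2, an inhibitor of receptor signalling, stood at 17.7 and 14.8 CPM in CHLA-20 with DMSO, 31.5 and 32 in CHLA-20 with JSK591, 16.4 and 16.9 in NGP with DMSO and 14.4 and 15.3 in NGP with JSK591. JSK591 libraries of CHLA-20 were well above its DMSO libraries and those of NGP were slightly below theirs, with a rise of 0.97 ± 0.07 in CHLA-20, -0.16 ± 0.08 in NGP that did not pass, and a difference of -1.13 ± 0.11 (adjusted p = 2.74e-11). SPRY1, SPRY4, the phosphatase DUSP6 and the ETS factor ETV4 also rose in CHLA-20 and did not pass in NGP, with differences of -1.01, -0.93, -0.80 and -1.41. ETV4 stood at 1.17 to 1.85 CPM in NGP and 9.94 to 35.6 in CHLA-20. EPHA2 and PHLDA1 were higher in NGP (0.58 and 0.79). Immediate-early genes, which respond within minutes to growth factors, had 8 lower and 3 higher of 18 tested and 30 listed. Among all genes 16.2% were lower and 20% higher. The median was -0.14, and -0.32 with the GC trend removed. The CRE, TGACGTCA, was found in 2 of 15 promoters of the list (371 of 10258) and the AP-1 site, TGANTCA, in none (580 of 10258). All 8 lower members fell in NGP, and 4 of them fell in CHLA-20 as well. EGR1 stood at 29.6 and 29.7 CPM in CHLA-20 with DMSO, 26.3 and 24.6 in CHLA-20 with JSK591, 274 and 280.3 in NGP with DMSO and 126 and 122 in NGP with JSK591, with JSK591 below DMSO in both lines and a difference of -0.94 ± 0.07. ARC (-0.83 ± 0.06), KLF6 (-0.89 ± 0.07) and JUNB (-0.57 ± 0.08) were lower as well, JUNB passing in NGP only. FOS went the other way: it stood at 22 and 23 CPM in CHLA-20 with DMSO, 3.82 and 5.15 in CHLA-20 with JSK591, 114 and 116 in NGP with DMSO and 51 and 54.1 in NGP with JSK591, fell in both lines and further in CHLA-20, and differed by 1.20 ± 0.11 (adjusted p = 6.3e-12).

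In the Notch pathway ligands of the Jagged and Delta families activate Notch receptors on neighbouring cells. Of 19 tested and 26 listed members 12 were higher in NGP and 1 lower, against 20% and 16.2% of all genes. The median was 0.26, and 0.25 with the GC trend removed. MFNG, a glycosyltransferase that modifies Notch receptors (ENSG00000100060.17, chromosome 22, 37469063 to 37486401), stood at 4.66 and 4.42 CPM in CHLA-20 with DMSO, 1.75 and 1.29 in CHLA-20 with JSK591, 8.67 and 8.69 in NGP with DMSO and 12.4 and 11.2 in NGP with JSK591. It fell in CHLA-20 and rose in NGP without overlap in either line, with a difference of 2.02 ± 0.20 (adjusted p = 6.6e-11). The ligand JAG1 fell by 1.13 in CHLA-20 and rose by 0.21 in NGP (1.34 ± 0.21), and JAG2 rose in NGP only (0.94 ± 0.11). The receptor NOTCH3 fell in CHLA-20 and rose in NGP (1.19 ± 0.23), while NOTCH1 rose in both (0.34 and 0.80). Among target genes, HES4 and NRARP were higher in NGP (1.09 and 0.89). HES1, the best known target, was the 1 member that was lower in NGP, rising by 1.03 in CHLA-20 with -0.04 in NGP. DESeq2 called 9 members higher and 0 lower, so HES1 was not called there.

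Collagens and other matrix genes were higher in NGP for 11 of 22 tested and lower for 1, VCAN, out of 30 listed. Among all genes 20% were higher and 16.2% lower. The list had a median of 0.26. AGRN, a proteoglycan of basement membranes and synapses, stood at 34.7 and 36.4 CPM in CHLA-20 with DMSO, 23.4 and 20.03 in CHLA-20 with JSK591, 10.2 and 11 in NGP with DMSO and 18.1 and 16.7 in NGP with JSK591. It fell in CHLA-20 and rose in NGP, a difference of 1.43 ± 0.11 (adjusted p = 4.25e-14). COL1A1 went from 70.1 and 72.2 CPM with DMSO to 49.7 and 46.5 with JSK591 in CHLA-20, and from 540.5 and 559 to 667 and 627 in NGP, the same directions (0.80 ± 0.06), and COL6A1 fell in both lines, by 1.12 and 0.44 (0.68 ± 0.05). COL5A1 fell in CHLA-20 only (0.85 ± 0.09). Decorin (DCN), with 4514 to 4665 counts in CHLA-20, had 3 to 5 counts in NGP and was not tested.

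**Figure D3:**
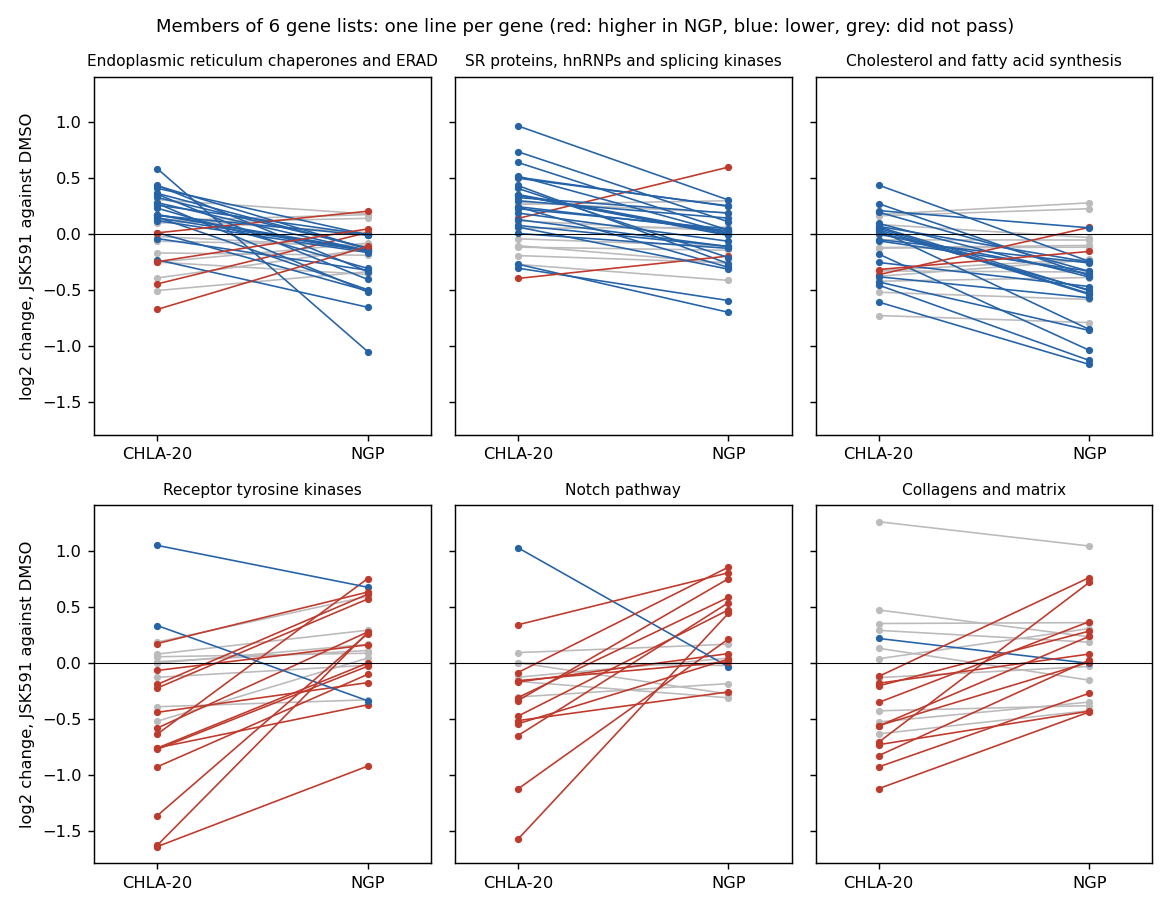
Log2 change with JSK591 in CHLA-20 (left of each panel) and NGP (right), with 1 line per tested gene, for 6 gene lists. Most lines slope down in the upper panels (20 of 35, 23 of 34 and 20 of 34 genes in blue) and up in the lower ones (14 of 24, 12 of 19 and 11 of 22 in red).

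The genes of the study's question gave a mixed picture. AKT1, the kinase named in the title (ENSG00000142208.16, chromosome 14, 104769349 to 104795751), stood at 112 and 117 CPM in CHLA-20 with DMSO, 116 and 115 in CHLA-20 with JSK591, 71.9 and 72.8 in NGP with DMSO and 95.6 and 92.9 in NGP with JSK591. NGP libraries with JSK591 were above those with DMSO, CHLA-20 groups overlapped, and the difference of 0.37 ± 0.06 passed (adjusted p = 2.62e-06), at 0.17 with the GC trend removed. AKT2 did not pass at 0.02 ± 0.06 and changed sign under other scalings, at -0.0029 with DESeq2's size factors and -0.12 with the GC trend removed. N-cadherin (CDH2), an adhesion molecule of mesenchymal and neural cells, went from 133 and 133 CPM with DMSO to 174 and 183 with JSK591 in CHLA-20, and from 237 and 229 to 213 and 217 in NGP, rising in CHLA-20 and falling in NGP (-0.54 ± 0.05). Vimentin (VIM), an intermediate filament, fell in both lines and further in NGP (-0.32 ± 0.05), and shares 24.4% of its exonic bases with another gene. SNAI1 fell in both lines and further in NGP (-0.37 ± 0.07), ZEB1 fell in both and further in CHLA-20 (0.20 ± 0.06), and TWIST1 fell in CHLA-20 with -0.04 ± 0.04 in NGP (0.56 ± 0.05). All 3 are transcription factors of that transition, and ZEB1 did not pass without replicate 2 of NGP DMSO (0.13). SNAI2, of the same family as SNAI1, fell in CHLA-20 and rose in NGP (0.76 ± 0.11). E-cadherin (CDH1) had 30 to 38 counts in CHLA-20, 7 and 6 in NGP with DMSO and 0 and 0 with JSK591, and was not tested. MYCN differed by -0.46 ± 0.19 and did not pass (adjusted p = 0.0556), and the value was 0.00 without replicate 2 of CHLA-20 JSK591 and -0.82 without replicate 1 of the same group. It passed with the GC trend removed (-0.58) and in 4 of the 8 fits without 1 library. MYC differed by -0.44 ± 0.29 (adjusted p = 0.241), at 17 to 37 counts per library in NGP. In the wider list of genes of epithelial-mesenchymal transition and metastasis, 8 of 26 were higher and 6 lower (median 0.08). Among all genes 20% were higher and 16.2% lower.

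Components of the PI3K, AKT and mTOR pathway passed in both directions, 6 higher and 8 lower of 31 tested, against 20% and 16.2% of all genes (median -0.02, and -0.11 with the GC trend removed). DESeq2 called 3 higher and 7 lower. The higher count was 3 without replicate 2 of NGP DMSO or replicate 1 of NGP JSK591, and the lower count 5 without replicate 1 of either CHLA-20 group. PIK3R1, the regulatory subunit of PI3K, stood at 122 and 119 CPM in CHLA-20 with DMSO, 146 and 151 in CHLA-20 with JSK591, 38.3 and 37.3 in NGP with DMSO and 32 and 33.1 in NGP with JSK591, a rise in CHLA-20 and a fall in NGP (-0.52 ± 0.07). The adaptor IRS2 rose by 0.47 ± 0.06 in CHLA-20 only (-0.50 ± 0.10), and the AKT phosphatase PHLPP1 fell in both lines and further in CHLA-20 (0.70 ± 0.10). FOXO factors and their targets, which AKT is known to restrain, were higher for 9 of 25 and lower for 6, against 20% and 16.2% of all genes (median 0.17, and 0.10 with the GC trend removed). DESeq2 called 5 and 5, and 5 were higher without replicate 1 of NGP DMSO. TXNIP, an inhibitor of glucose uptake, went from 172 and 172 CPM with DMSO to 96.2 and 98.1 with JSK591 in CHLA-20, and from 28.7 and 29 to 40.9 and 40.7 in NGP, a fall and a rise that gave a difference of 1.32 ± 0.06 (adjusted p = 4.34e-20). FOXO3 itself rose in CHLA-20 and fell in NGP (-0.57 ± 0.07), and FOXO4 fell in CHLA-20 (0.88 ± 0.15).

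Identity genes did not move as a block. Of 28 tested adrenergic genes 10 were higher in NGP and 7 lower, against 20% and 16.2% of all genes. Their median was 0.05 and became -0.01 with the GC trend removed. HAND2, a transcription factor of the lineage (ENSG00000164107.8, chromosome 4, 173524969 to 173530229), stood at 769 and 807 CPM in CHLA-20 with DMSO, 551 and 532 in CHLA-20 with JSK591, 640.2 and 692 in NGP with DMSO and 849.9 and 849.9 in NGP with JSK591. It fell in CHLA-20 and rose in NGP without overlap in either line, and its difference was 0.89 ± 0.05 (adjusted p = 5.68e-17), with 24.1% of its exonic bases shared with another gene. SLC6A2, the noradrenaline transporter that takes up the tracer MIBG (ENSG00000103546.18, chromosome 16, 55655604 to 55706192), moved the other way. Its levels were 2.49 and 2.37 CPM in CHLA-20 with DMSO, 9.68 and 10.1 in CHLA-20 with JSK591, 35.7 and 36.2 in NGP with DMSO and 30.6 and 30.1 in NGP with JSK591, higher with JSK591 in CHLA-20 and lower in NGP, with a difference of -2.27 ± 0.13 (adjusted p = 1.23e-17) and 17.9% of its exonic bases shared. HAND1 and DDC, the decarboxylase of dopamine synthesis, likewise rose in CHLA-20 and fell in NGP (-0.59 and -0.51). Mesenchymal genes passed for 12 of 22 tested, 54.5% against 36.2% of all genes. Of these 7 were higher and 5 lower, and the list had a median of -0.00, and of 0.03 with the GC trend removed.

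Of 35 neuronal differentiation genes 12 were lower in NGP and 6 higher, against 16.2% and 20% of all genes (median -0.02). CNTN6, an adhesion molecule of growing axons (ENSG00000134115.12, chromosome 3, 1092576 to 1404217), was the largest negative difference of all genes named by the rule. It stood at 1.63 and 1.42 CPM in CHLA-20 with DMSO, 4.87 and 5.18 in CHLA-20 with JSK591, 3.53 and 4.07 in NGP with DMSO and 2.32 and 2.45 in NGP with JSK591, rising in CHLA-20 and falling in NGP without overlap (-2.39 ± 0.24, adjusted p = 9.37e-11). The synaptic vesicle protein SYT4 went from 321 and 321 CPM with DMSO to 659 and 687 with JSK591 in CHLA-20, and from 54.3 and 52.1 to 48 and 49.9 in NGP, with a difference of -1.19 ± 0.06, and DPYSL3, which acts on the growth cone, rose by 0.99 ± 0.04 and 0.14 ± 0.04. The granin SCG2 rose in CHLA-20 and fell in NGP (-0.69 ± 0.05). NGFR, the low-affinity neurotrophin receptor, fell in both lines and further in CHLA-20 (0.98 ± 0.07).

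Several of the largest positive differences of protein-coding genes came from genes with low counts. WNT11, a secreted Wnt ligand (ENSG00000085741.12, chromosome 11, 76186325 to 76210736), stood at 2.14 and 2.22 CPM in CHLA-20 with DMSO, 0.408 and 0.449 in CHLA-20 with JSK591, 0.688 and 0.633 in NGP with DMSO and 0.675 and 1.25 in NGP with JSK591. CHLA-20 libraries with JSK591 lay far below those with DMSO and NGP groups overlapped, so that the difference of 2.88 ± 0.42 (adjusted p = 6.05e-07) came with an effect in NGP of 0.54 ± 0.30 that did not pass. WNT4 fell in CHLA-20 only as well (2.02 ± 0.40), and the Wnt receptor FZD8 fell in CHLA-20 and rose in NGP (1.96 ± 0.39). KLHL31 was the reverse case, at 0.95 and 1.19 CPM in CHLA-20 with DMSO, 0.787 and 1.26 in CHLA-20 with JSK591, 0.389 and 0.362 in NGP with DMSO and 1.82 and 1.55 in NGP with JSK591: it rose in NGP only and had overlapping groups in CHLA-20 (2.22 ± 0.42). MYCL, a relative of MYCN, went from 1.54 and 1.63 CPM with DMSO to 0.554 and 0.419 with JSK591 in CHLA-20, and from 8.85 and 9.83 to 12.3 and 12.1 in NGP, a fall and a rise (2.08 ± 0.29). CSPG4, a proteoglycan of pericytes and glial precursors, likewise fell and rose (2.10 ± 0.29), as did the guidance-related gene NAV3 (1.89 ± 0.33). MEGF6 (1.95 ± 0.22) fell in CHLA-20 only, and SMOC1, a matricellular protein, rose in NGP only (1.88 ± 0.40). FBXO24 had a difference of 2.13 ± 0.43 with 26.7% of its exonic bases shared with another gene.

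Of the 12 largest negative differences of protein-coding genes, 10 rose in CHLA-20 by more than 1 on the log2 scale, and the other 2, DNAJB1 and HSPA5, fell in NGP by more than 1. Besides CNTN6, SLC6A2, DNAJB1 and HSPA5 they were CDH6, a cadherin, PTPRB, a receptor phosphatase of vessels, ACTA2, the smooth muscle actin, SAMSN1, RERG, NWD2, CAPN6 and ARHGDIB. CDH6 stood at 2.14 and 2.05 CPM in CHLA-20 with DMSO, 8.4 and 8.38 in CHLA-20 with JSK591, 6.58 and 6.03 in NGP with DMSO and 8.01 and 6.56 in NGP with JSK591. It was about as high in CHLA-20 with JSK591 as in NGP, whose groups overlapped, and its difference was -1.79 ± 0.19. PTPRB went from 6.26 and 4.69 CPM with DMSO to 16.3 and 14.4 with JSK591 in CHLA-20, and from 1.79 and 1.99 to 1.44 and 1.19 in NGP, and ACTA2 from 1.31 and 0.92 CPM with DMSO to 4.08 and 3.29 with JSK591 in CHLA-20, and from 0.748 and 0.935 to 0.499 and 0.656 in NGP, with differences of -2.01 and -2.27. ACTA2 shares 30.1% of its exonic bases with another gene. SAMSN1 and RERG rose in CHLA-20 and fell in NGP (-2.23 and -1.73), and NWD2 rose in both lines and further in CHLA-20 (-1.56).

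Further genes moved in opposite directions in the 2 lines by a similar size. BAMBI, a decoy receptor that dampens BMP and TGF-beta signals, stood at 5.4 and 5.75 CPM in CHLA-20 with DMSO, 8.34 and 9.22 in CHLA-20 with JSK591, 20.9 and 20.9 in NGP with DMSO and 13.1 and 12.9 in NGP with JSK591. Its groups did not overlap in either line, and it rose by 0.65 ± 0.11 in CHLA-20 and fell by 0.68 in NGP. RGS2, a brake on G protein signals, went from 43.8 and 43.2 CPM with DMSO to 65.2 and 64.1 with JSK591 in CHLA-20, and from 36.1 and 31.9 to 23.3 and 25 in NGP (-1.07 ± 0.08). The lipase LIPG (-1.11 ± 0.28), the kinase NUAK2 (-1.06 ± 0.25) and the membrane protein CHIC2 (-1.19 ± 0.16) rose and fell in the same way. In the other direction, HOXD10, a homeobox gene of the limb and spinal cord, stood at 6.53 and 6.62 CPM in CHLA-20 with DMSO, 4.02 and 4.01 in CHLA-20 with JSK591, 12 and 12.6 in NGP with DMSO and 20.8 and 19.7 in NGP with JSK591, a fall in CHLA-20 and a rise in NGP (1.43 ± 0.15). The acetyl-CoA synthetase ACSS1 (1.48 ± 0.21), the somatostatin receptor SSTR3 (1.83 ± 0.34) and the transcription factor STAT6 (1.83 ± 0.53) also fell in CHLA-20 and rose in NGP. STAT6, at 0.299 to 0.742 CPM, did not pass with DESeq2 (adjusted p = 0.0866) or without replicate 2 of CHLA-20 DMSO (1.45).

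BMP signalling genes beside BAMBI were lower in NGP for 5 more of 15 tested and higher for 1. Among all genes 16.2% were lower and 20% higher. The median of the list was -0.03, and -0.12 with the GC trend removed. SMAD7, ID1 and ID3, targets of the pathway, fell in both lines and further in NGP (-0.64, -0.23 and -0.42), but ID1 did not pass without replicate 1 of CHLA-20 JSK591 (-0.16). Genes of the ATF4 and amino acid response mostly fell in both lines, 27 of 37 in CHLA-20 and 26 in NGP. They differed in either direction, 9 higher and 7 lower, against 20% and 16.2% of all genes (median 0.02, and -0.02 with the GC trend removed). The ATF4 element TGATGNAAT was found in 1 of 32 promoters of the list and in 66 of 10258. SLC3A2, a subunit of amino acid transporters, fell further in NGP (-0.63 ± 0.06), and TRIB3, CEBPB and DDIT4 fell further in CHLA-20 (0.88, 0.75 and 0.75). Glycolysis genes passed for 7 of 27, 25.9% against 36.2% of all genes, 2 higher and 5 lower (median -0.05). With the GC trend removed 11 were lower (median -0.12), and without 1 library 3 (replicate 1 of either CHLA-20 group) to 10 (replicate 1 of NGP DMSO). The largest difference in the list was that of ADM, a peptide hormone induced by low oxygen, which the list holds beside glycolytic enzymes. ADM fell in CHLA-20 and rose in NGP (1.28 ± 0.12). Genes of polyamines and the methionine cycle passed for 30% of those tested, against 36.2% of all genes. MAT2A, which makes the methyl donor used by PRMT5, rose in both lines and further in NGP: it stood at 296 and 285 CPM in CHLA-20 with DMSO, 341 and 337 in CHLA-20 with JSK591, 137 and 128 in NGP with DMSO and 216 and 216 in NGP with JSK591, with a difference of 0.48 ± 0.05. In the polyamine and methionine list it was 1 of 4 higher members of 20 (1 without replicate 1 of NGP DMSO), with 2 lower (median -0.02, and 0.01 with the GC trend removed).

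Cytosolic ribosomal proteins passed in 7 of 38 cases, 18.4% against 36.2% of all genes, all higher by 0.14 to 0.22 (median 0.07). With the GC trend removed 7 were higher and 2 lower. Leaving out 1 library left 0 (replicate 1 of NGP DMSO) to 7 of them higher. Ribosome biogenesis genes and MYC targets were lower for 8 of 30 and higher for 4, 40% passing against 36.2% of all genes (median -0.11). With the GC trend removed 14 were lower and 2 higher, and without 1 library 1 to 3 were higher, the fewest without replicate 2 of CHLA-20 DMSO. NOP58, of the box C/D particles, rose in CHLA-20 and fell in NGP (-0.45 ± 0.06). Respiratory chain subunits encoded in the nucleus were higher for 9 of 37 and lower for none, 24.3% passing against 36.2% of all genes (median 0.00). With the GC trend removed 4 were higher and 3 lower. Leaving out 1 library left 2 to 8 of them higher, 2 without replicate 2 of CHLA-20 DMSO, replicate 1 of NGP DMSO or replicate 2 of NGP JSK591. Of 15 mitochondrially encoded genes 4 were higher and 2 lower, 40% passing against 36.2% of all genes. DESeq2 called 1 higher and 2 lower. Their median was -0.00, and 0.05 with the GC trend removed, and -0.04 to 0.01 without 1 library. The adjacent genes MT-ATP8 and MT-ATP6 rose further in CHLA-20 (-0.63 and -0.39). Of 34 MHC class I and interferon-stimulated genes only 9 had enough counts, and STAT2 alone passed (0.27 ± 0.09), a call lost with DESeq2 (0.25) and without replicate 1 of either CHLA-20 group (0.22 and 0.24), replicate 2 of NGP DMSO (0.18) or replicate 1 of NGP JSK591 (0.16). Among markers of other cells, none of 10 blood markers was tested, 1 of 3 epithelial ones passed (CLDN4, 1.10), and of 7 fibroblast and Schwann cell markers COL1A1 and PDGFRB were higher and THY1 lower (0.80, 0.27 and -0.18). CLDN4 lost its call without replicate 2 of CHLA-20 JSK591 (1.02), NGP DMSO (0.73) or NGP JSK591 (0.99). THY1 lost it without replicate 2 of CHLA-20 DMSO (-0.18) or of CHLA-20 JSK591 (-0.13) or replicate 1 of NGP JSK591 (-0.19), and PDGFRB with the GC trend removed (0.14). CLDN4 and THY1 also lost their calls with DESeq2 (1.08 and -0.20). Without a filter on low counts CLDN4, THY1 and STAT2 lost theirs (1.08, -0.20 and 0.26). Small counts moved with single libraries in other lists too. The 2 higher members of the lists of splicing regulators, cholesterol and fatty acid synthesis, heat shock and glycolysis, and the 2 lower receptor tyrosine kinases, were 1 in at least 1 fit without 1 library, among them that without replicate 1 of NGP DMSO for all 5 lists.

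**Figure D4:**
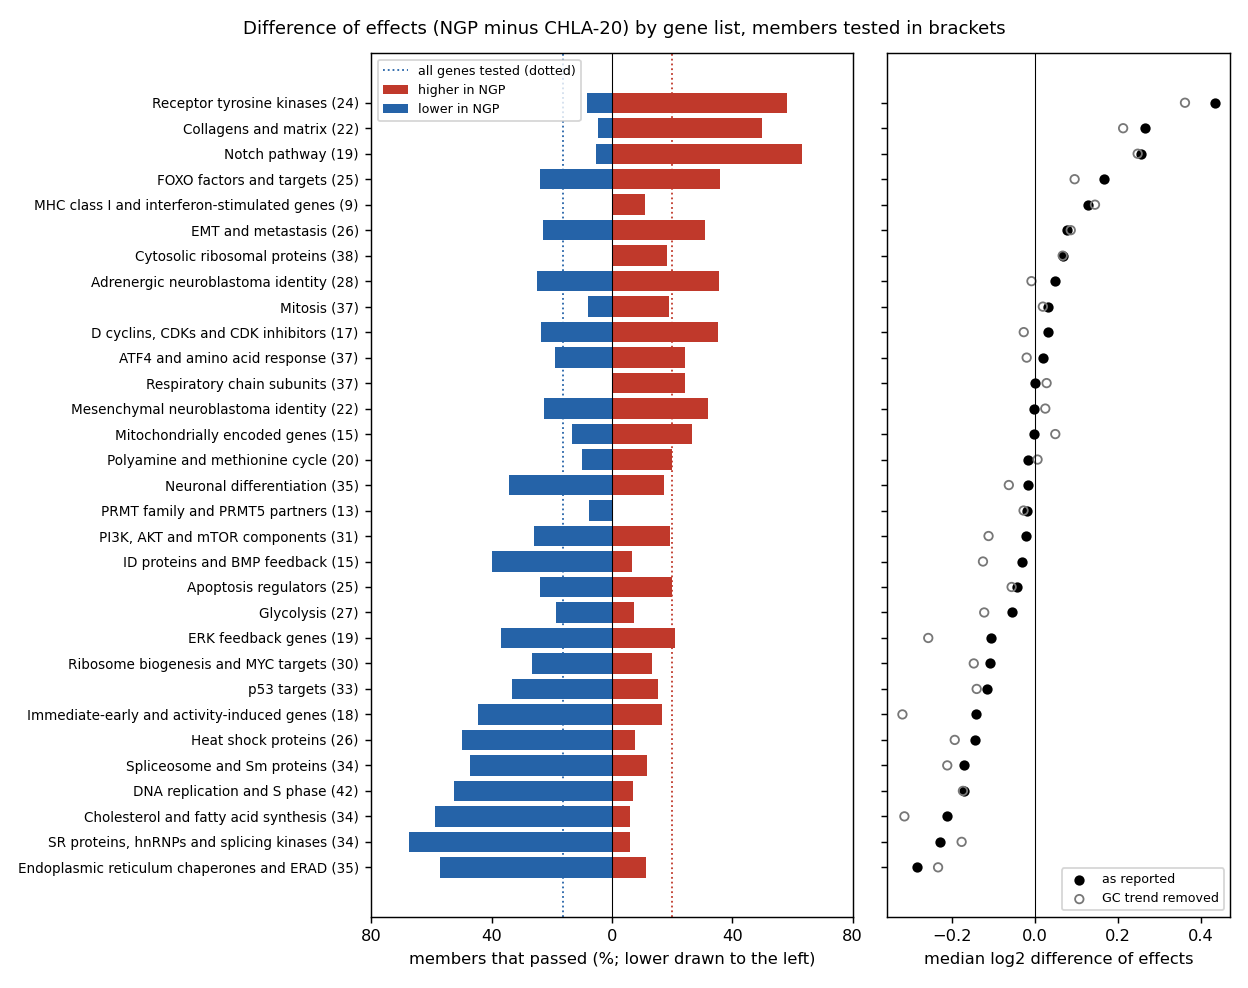
Left, the percent of tested members of each list whose difference was higher in NGP (red, right) or lower (blue, left), with dotted lines at 20% and 16.2% for all genes. Right, the median log2 difference as reported (filled) and with the GC trend removed (open): receptor tyrosine kinases stand at 0.43 and endoplasmic reticulum genes at -0.28.

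Long non-coding RNAs were more often higher than lower in NGP, and processed pseudogenes were not. Of 432 tested long intergenic RNAs 106 were higher in NGP and 14 lower (24.5% and 3.24%), with a median of 0.31. Of 575 antisense RNAs 103 were higher and 15 lower (17.9% and 2.61%), with a median of 0.25. Among all genes tested 20% were higher and 16.2% lower, so the lower shares departed further from those of all genes than the higher shares. For both classes the median effect was larger in NGP (0.39 and 0.35) than in CHLA-20 (0.09 and 0.08). Of 960 processed pseudogenes 20 were higher and 36 lower (2.08% and 3.75%), with a median of -0.03. Protein-coding genes had 2550 higher and 2237 lower of 11845, with a median of 0.01, and -0.01 with the GC trend removed. With that trend removed the intergenic RNAs had 98 higher and 18 lower and the antisense RNAs 89 and 18. The largest were AC124944.3 (2.61 ± 0.37), LINC01355 (2.37 ± 0.32) and LBX2-AS1 (2.29 ± 0.29). LINC01355 stood at 3 and 2.43 CPM in CHLA-20 with DMSO, 3.18 and 3.08 in CHLA-20 with JSK591, 0.449 and 0.392 in NGP with DMSO and 2.41 and 2.65 in NGP with JSK591, with groups close together in CHLA-20, where the effect did not pass, and far apart in NGP, where it rose. The largest negative ones were AC114947.2, AC136621.1 and RN7SL608P (-1.83, -1.82 and -1.66), of which 28.2%, 42.4% and 62% of the exonic bases are shared with another gene. Without a stated strand setting, reads of an antisense RNA and of its partner cannot be told apart. Among the other genes named here, WDR77 shares 36.5% of its exonic bases with another gene, DDIT4 41.2%, DUSP6 40.5%, NGFR 27.1%, PDIA6 25.2%, MT-ATP8 22.2%, RRM2 20.2%, CARM1 19.9%, HOXD10 16.8% and PHLDA1 16.5%.

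The difference also followed the GC content of the transcripts. With genes split into 10 groups of 1452 by GC content, in the lowest group the median difference was -0.07, with 181 higher and 362 lower, and in the highest it was 0.24, with 624 higher and 53 lower. In CHLA-20 the median effect was 0.05 in the lowest group and -0.17 in the highest, and in NGP it was -0.02 and 0.07. Over genes, the difference and the GC content had a Pearson r of 0.26, which is given as a description. When the trend was removed in each library, 2505 genes were higher and 2721 lower, so that the larger side changed, and the lists of endoplasmic reticulum genes, splicing regulators, cholesterol and fatty acid genes, receptor tyrosine kinases and Notch genes had medians of -0.23, -0.18, -0.31, 0.36 and 0.25. Whether the trend arose in the cells or in the making of the libraries was not tested.

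**Figure D5:**
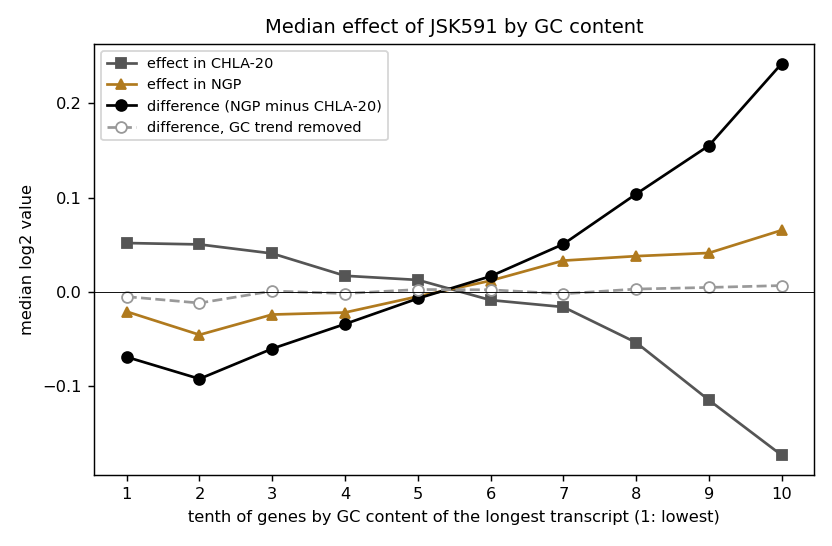
Median log2 effect of JSK591 in CHLA-20 (squares) and NGP (triangles) and median difference (filled circles) for 10 groups of 1452 genes ordered by GC content, from the lowest to the highest. The difference goes from -0.07 to 0.24, and with the trend removed (open circles) it stays near 0.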

How the data were processed

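RNA was measured in 8 libraries, 2 per group. Per the labels' protocols, total RNA was taken with Trizol, enriched for mRNA and sequenced on a BGI DNBseq instrument. The submitters' processing notes name STAR, HTSeq, DESeq2 and GRCh38 (hg38). The deposited values are raw read counts per gene. Annotation and strand handling were not given in the sources used here, and all 58721 identifiers were found in GENCODE 29, from which symbols, coordinates, exon overlap and GC content were taken. Rows that name no gene (no feature 5.15% to 6.86%, ambiguous 6.77% to 7.18%, several alignments 19.2% to 22.0%, as percent of all counted reads) were left out.

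The counts were fitted with edgeR 4.0.16 (R 4.3.3), quasi-likelihood, TMM scaling and 1 mean per group over all 8 libraries, on genes with at least 10 counts in every library. The interaction contrast was tested and adjusted by Benjamini-Hochberg over 14520 genes at 0.05. CPM are TMM-scaled, and the SE is the log2 value divided by the square root of F. The labels do not say whether the 2 libraries of a group are separate cultures, so p-values measure the spread between these libraries, which may be technical. Replicates of a group differed by more than sampling noise (chi-square per degree of freedom 2.16 to 3.36, other pairs 22.5 to 309). Same-numbered libraries did not deviate together (correlations -0.070 to 0.037) and were not treated as pairs.

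Named genes were the 12 largest differences in each direction among protein-coding genes. To these came 8 protein-coding genes each way whose effects passed in opposite directions, with the largest smaller effect. The others were the 4 members of each list with the smallest p, the study's question genes and the 3 largest non-coding genes each way. Genes chosen by size or by opposite effects also had to have separate ratios. That is, all 4 NGP log2 ratios of a JSK591 to a DMSO library lay on the same side of all 4 CHLA-20 ratios. Such separation is therefore part of the choice of these genes, and 5184 of the 5252 genes that passed had it. Other list members named in the text were chosen after their values were seen. The members and lists were chosen with earlier results of these data known. Alternatives were DESeq2 1.42.0 as test and as size factors, filterByExpr, no filter, removal of the GC trend, a replicate block and leaving out each library. A few genes are not reported here.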

Additional observations from a re-analysis of the deposited data

Results flagged for a closer look

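The difference of effects is itself a test of whether 2 lines differ under the same contrast, and 5252 genes passed it. The 16 genes that follow, 8 each way, were chosen because their effects passed in both lines in opposite directions with the largest smaller effect, so their differences are a description and no further test. Their ratios of JSK591 to DMSO libraries also had to lie apart between the lines. Other named genes also passed in opposite directions. The lower ones in NGP were HSPA5 (-1.63), BAMBI (-1.33), LIPG (-1.11), CHIC2 (-1.19), RGS2 (-1.07), CNTN6 (-2.39), SAMSN1 (-2.23) and NUAK2 (-1.06). The higher ones were FBXO24 (2.13), HOXD10 (1.43), ACSS1 (1.48), STAT6 (1.83), CSPG4 (2.10), FZD8 (1.96), AGRN (1.43) and SSTR3 (1.83). Groups of 2 libraries are too small to look for single libraries that stand apart.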

How the results depend on the processing

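Of the counts, DESeq2 called 1925 genes higher in NGP in place of 2903, and 257 rising in NGP and falling in CHLA-20 in place of 495. With filterByExpr 736 genes reached 1 on the log2 scale in place of 437. Without a filter 277 genes rose in NGP and fell in CHLA-20, and 227 did the reverse in place of 380. The cause was not tested. With the GC trend removed 2505 were higher and 2721 lower, so the larger side changed. It also changed without replicate 2 of CHLA-20 DMSO, either replicate of NGP DMSO or replicate 1 of NGP JSK591. Leaving out 1 library gave 2141 to 2619 higher genes, 1918 to 2549 lower, 399 to 456 of at least 1, and 300 to 427 and 284 to 418 of opposite direction. The replicate block gave 2888 higher, 2345 lower, 438 of at least 1, and 494 and 378 opposite, and changed no named call. With the replicate block and the GC trend removed these were 2558, 2788, 375, 411 and 483.

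Of 167 named genes 139 kept direction and side of the threshold under all 17 settings. Of the 2839 recomputed values 17 changed sign. AKT2 was -0.0029 with DESeq2 and with its size factors, -0.12 with the GC trend removed, with and without the replicate block, and -0.089 to 0.053 over the libraries left out. With the GC trend removed, with and without the block, CARM1 was -0.089 and CYC1 -0.057. MUC1 was -0.0017 with the block and the GC trend removed, and -0.34 to 0.81 over the libraries left out. MYCN ranged from -0.82 to 0.0050 and WDR77 from -0.11 to 0.015 in the same way. With 2 libraries per group and 4 residual degrees of freedom, differences in genes near the minimum of 10 counts were the least precise.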
